A study of Rattus norvegicus with 24 samples.

Results

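Genes that mark macrophages and lymphocytes were followed across all 24 arrays of a rat heart study. The set held 35 genes, chosen by symbol: 17 markers of mononuclear phagocytes, 3 genes of antigen presentation and costimulation (Cd80, Cd86 and Cd74), the pan-leukocyte gene Ptprc, 7 T cell markers, 4 B cell markers and 3 natural killer (NK) and cytotoxic cell markers. Probes were assigned through the rat RefSeq transcript accession that the array files give for each probe. This gave 36 probes for 33 of the 35 genes, out of 15168 named genes. Cd79a and Ms4a1 were not matched to a probe and were not analysed here. All 33 genes passed the filter on faint probes and were among the 12894 genes tested.

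The samples were myocardium of rats in 6 groups of 4, with 2 males and 2 females in each. For the group sham the labels list no ligation. Rats of the group IRI had ischaemia-reperfusion injury, made by ligating the left anterior descending artery of the heart. In the groups Jiaji, Neiguan, Yanglingquan and Quchi this injury followed 7 days of acupuncture pretreatment at the acupoint each is named for, and the question put to these data was how such pretreatment acts on injured myocardium. Strain, age, the length of reperfusion, the part of the heart sampled and the sham procedure are not stated in the labels, and no group had acupuncture without injury. Each array was taken as 1 animal. On each array 71.2% to 88.8% of probes were well above background, and Yanglingquan was lowest on average (73.5 ± 2.51%, SD, n = 4, against means of 80.1% to 84.8% in the other groups). The arrays were scanned in 7 scans on 3 days. Each scan held 1 group, Quchi replicate 1 was scanned apart from the other Quchi arrays, and sham and IRI shared a scan day with no acupoint array, so scan and group cannot be told apart in any comparison given here. The tissue matched its label: the cardiomyocyte genes Myh6 and Tnnt2 had group means of 7.09 to 7.74 and 7.39 to 8.10 on the log2 scale used here, where 0 is the 75th percentile of the array's probes.

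Mononuclear phagocytes comprise monocytes, which enter tissue from blood, and macrophages, which live there and clear dead cells. The heart holds resident macrophages in health, and after infarction neutrophils and then monocytes enter the injured muscle. T cells read antigen through the T cell receptor and its CD3 chains, B cells through surface immunoglobulin and its CD79 chains, and NK cells kill targets with perforin and granzymes without such a receptor. PU.1, the protein of Spi1, is the transcription factor that drives the myeloid programme, and it binds a short purine-rich DNA core.

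Promoters of 5 of these genes are shown because Spi1 itself was among the genes that differed between groups. They are the phagocyte markers Cd68, Itgam and Lyz2, then Cd80, which differed most, and Cd22, which was lowest in 1 group. Each sequence is the stretch of 250 bases before the gene's start in RefSeq (build GRCr8), written 5' to 3' along the gene. The coordinates are chr10:54882442-54882691 (minus strand), chr1:192089342-192089591 (plus strand), chr7:54798012-54798261 (minus strand), chr11:75797541-75797790 (minus strand) and chr1:95259731-95259980 (minus strand). Capitals mark GAGGAA, the PU.1 core, or its reverse complement.
Cd68: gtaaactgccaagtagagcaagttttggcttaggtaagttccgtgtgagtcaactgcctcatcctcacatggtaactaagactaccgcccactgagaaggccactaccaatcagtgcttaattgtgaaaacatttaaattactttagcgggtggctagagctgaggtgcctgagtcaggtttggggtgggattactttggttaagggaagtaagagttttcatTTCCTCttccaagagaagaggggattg
Itgam: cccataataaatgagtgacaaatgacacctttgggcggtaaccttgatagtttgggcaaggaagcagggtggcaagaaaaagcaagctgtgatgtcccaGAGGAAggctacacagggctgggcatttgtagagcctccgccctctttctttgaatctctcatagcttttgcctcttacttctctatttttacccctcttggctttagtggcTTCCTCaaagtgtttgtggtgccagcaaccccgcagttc
Lyz2: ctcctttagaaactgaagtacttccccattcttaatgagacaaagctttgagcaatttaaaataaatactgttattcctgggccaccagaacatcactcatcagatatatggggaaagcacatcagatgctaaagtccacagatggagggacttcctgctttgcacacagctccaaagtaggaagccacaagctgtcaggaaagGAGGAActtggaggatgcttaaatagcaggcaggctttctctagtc
Cd80: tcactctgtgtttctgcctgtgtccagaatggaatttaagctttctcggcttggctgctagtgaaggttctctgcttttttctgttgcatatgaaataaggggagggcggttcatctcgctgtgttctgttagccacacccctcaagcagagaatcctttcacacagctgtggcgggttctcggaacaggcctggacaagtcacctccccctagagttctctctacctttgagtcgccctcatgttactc
Cd22: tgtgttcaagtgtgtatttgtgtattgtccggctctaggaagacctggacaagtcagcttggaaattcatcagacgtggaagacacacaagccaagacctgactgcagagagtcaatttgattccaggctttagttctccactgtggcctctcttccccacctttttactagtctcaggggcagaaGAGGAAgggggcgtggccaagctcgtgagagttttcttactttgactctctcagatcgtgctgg

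The core GAGGAA was found on either strand in 14 of the 25 member promoters with an entry (56%), and in 23.2% of all 27457 promoters of that length. It was present in 8 of 12 phagocyte markers (66.7%) and in 3 of 9 T, B and NK markers (33.3%). In Cd68 the match began 27 bases before the gene's start, in Lyz2 46 bases and in Cd22 64 bases before it. Itgam, which encodes the integrin chain CD11b, had matches at 151 and 39 bases. The Cd80 window held none, which says only that these letters are not in it. The core TGTGGT, bound by RUNX factors, was found on either strand in 7 of 25 member promoters (28%) and in 14.1% of all promoters. These matches describe letters and were not tested for binding.

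Cd80, Spi1 and Csf1r passed the test in the most comparisons. Of the 33 genes, 25 were called in 0 of the 9 comparisons between 2 groups by limma (Benjamini-Hochberg adjusted p of at most 0.05 over all genes tested), and 8 were called in at least 1, beside 48.9% of all genes: Cd80 in 8 comparisons, Spi1 in 7, Csf1r in 6, Cd8b in 3, Cd22 in 2, and Mrc1, Aif1 and Cx3cr1 in 1 each. The comparisons share their IRI or sham arrays and so are not independent of each other. In bulk tissue, fewer cells of a type and less RNA per cell cannot be told apart.

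**Figure D1:**
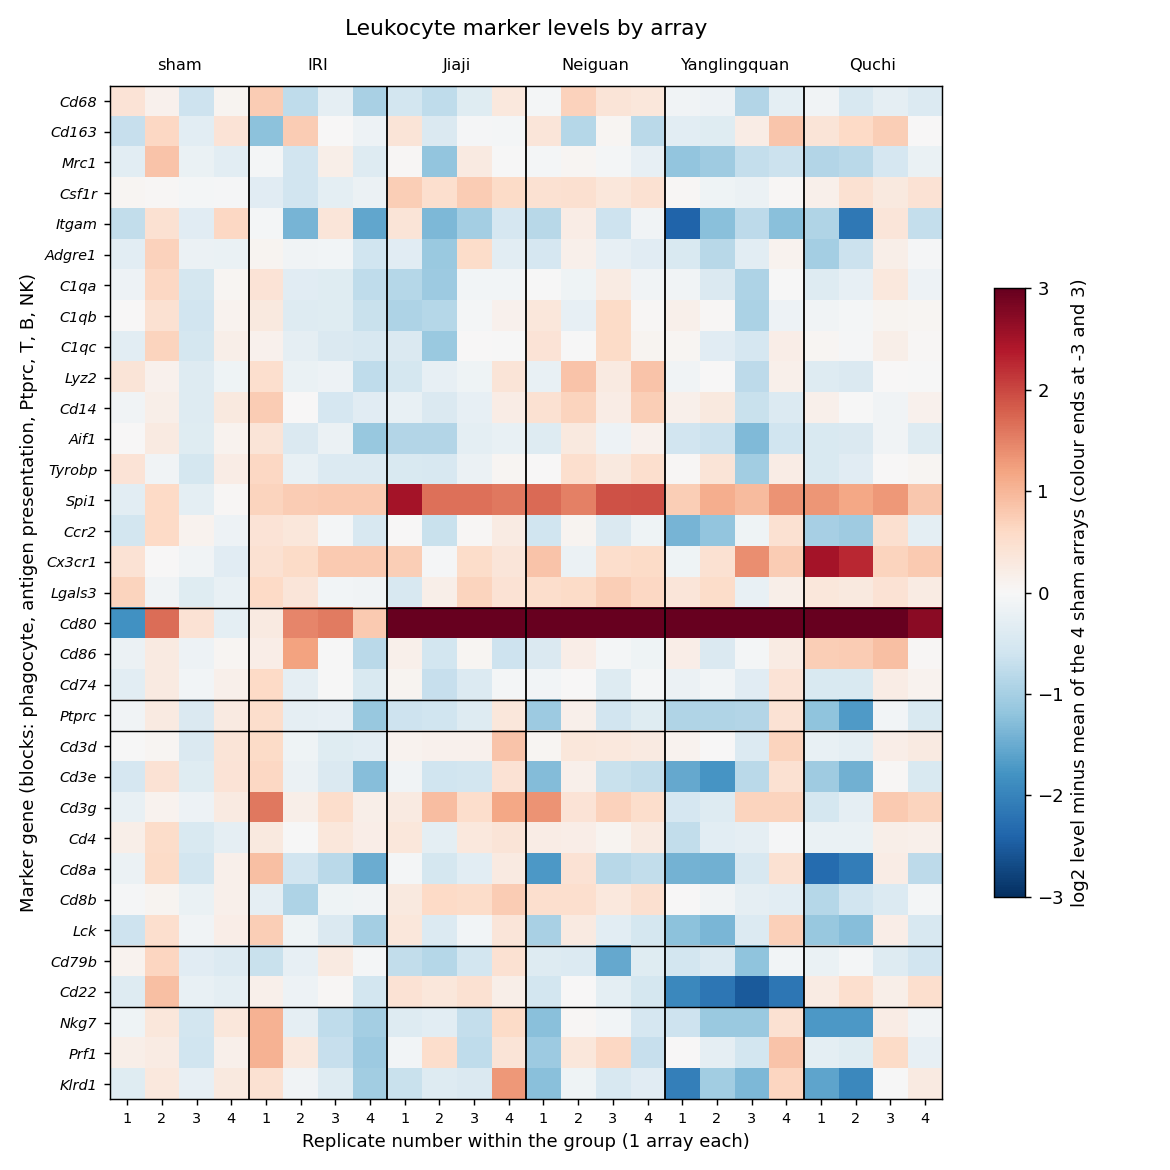
Level of each of the 33 marker genes (rows, in blocks by cell type) on each of the 24 arrays (columns, 4 per group), as log2 level minus the mean of the 4 sham arrays; colours end at -3 and 3. Cd80 and Spi1 stand out in the acupoint groups and Cd22 in Yanglingquan, while several T and NK cell rows, Cd8b not among them, shift together from array to array within groups.

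In injured hearts without pretreatment, Spi1 was the marker that passed the test against sham, a share near that of genes in general. Of the 33 genes, 1 was called higher in IRI than in sham (4.72% of all genes were) and 0 lower (1.03% of all genes); 3 had an unadjusted p under 0.05 by limma, the only tool run. The median difference was -0.18 on the log2 scale over the 17 phagocyte markers and -0.19 over the 12 T, B and NK markers, with -0.034 over all genes. Of the phagocyte markers 13 of 17 lay below sham, and of the T, B and NK markers 10 of 12 and none of these passed. Without IRI replicate 1 the medians were -0.34 and -0.45, and without IRI replicate 4 they were -0.062 and -0.0087.

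The precision of these comparisons can be read from single genes. For Lyz2, lysozyme of phagocytes, IRI minus sham was -0.15 with a 95% confidence interval of -0.74 to 0.44, and for Cd68, a lysosomal glycoprotein of macrophages, it was -0.31 (-0.92 to 0.30). Ccr2, the chemokine receptor of inflammatory monocytes, differed by 0.045 (-0.67 to 0.76). Cd3e, a chain of the T cell receptor complex, differed by -0.31 (-1.22 to 0.60) and Nkg7, a granule protein of cytotoxic cells, by -0.25 (-1.28 to 0.77). The intervals of these lymphocyte genes were wider than those of Lyz2 and Cd68. Neutrophil markers, which belong to another cell type, had a median of 0.75 in the same comparison. Of 12 tested, 1 was called higher (4.72% of all genes were). This was Cxcr2, the receptor for neutrophil-drawing chemokines (1.05 ± 0.27, SE, adjusted p = 0.0215). The summed level of the neutrophil markers was 0.33 to 2.33 in sham and 1.41 to 2.39 in IRI, and their part in the leukocyte results was not tested.

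Spi1 was the member that rose in IRI, and it stood higher again in some acupoint groups. Its sham levels were -4.70, -3.79, -4.69 and -4.36 and its IRI levels -3.72, -3.63, -3.59 and -3.59. In Jiaji it stood at -1.88, -2.74, -2.74 and -2.80 and in Neiguan at -2.68, -2.87, -2.48 and -2.44. All 4 arrays of IRI lay above all 4 of sham, and all arrays of Jiaji and Neiguan above all of IRI. In Yanglingquan it stood at -3.63, -3.29, -3.44 and -3.03 and in Quchi at -3.06, -3.22, -3.08 and -3.57, so both groups lay above sham; Yanglingquan overlapped IRI, and the lowest Quchi array lay just above the highest IRI array.

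From sham to IRI, Spi1 rose by 0.75 ± 0.21 (SE, 1.68-fold, adjusted p = 0.0346). This call rested on single arrays: it ended without any 1 of 7 arrays, namely each IRI array or sham replicate 1, 3 or 4 (adjusted p = 0.0534 to 0.126), and with normexp background correction (0.30, adjusted p = 0.207), quantile normalization (0.63, adjusted p = 0.0521) or the authors' deposited table (0.63, adjusted p = 0.0543). Against IRI, Spi1 rose by 1.09 ± 0.21 in Jiaji and by 1.02 ± 0.21 in Neiguan (adjusted p = 0.00123 and 0.00379). In Yanglingquan and Quchi the differences from IRI were 0.28 ± 0.21 and 0.40 ± 0.21 and did not pass (adjusted p = 0.41 and 0.299). Against sham it rose in all 4 acupoint groups, by 1.84 in Jiaji, 1.77 in Neiguan, 1.03 in Yanglingquan and 1.15 in Quchi (each ± 0.21, adjusted p = 1.89e-06, 3.17e-06, 0.00274 and 0.000737). Normexp gave 0.60 to 0.65 against IRI in Jiaji and Neiguan and 0.54 to 0.94 against sham, all called.

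**Figure D2:**
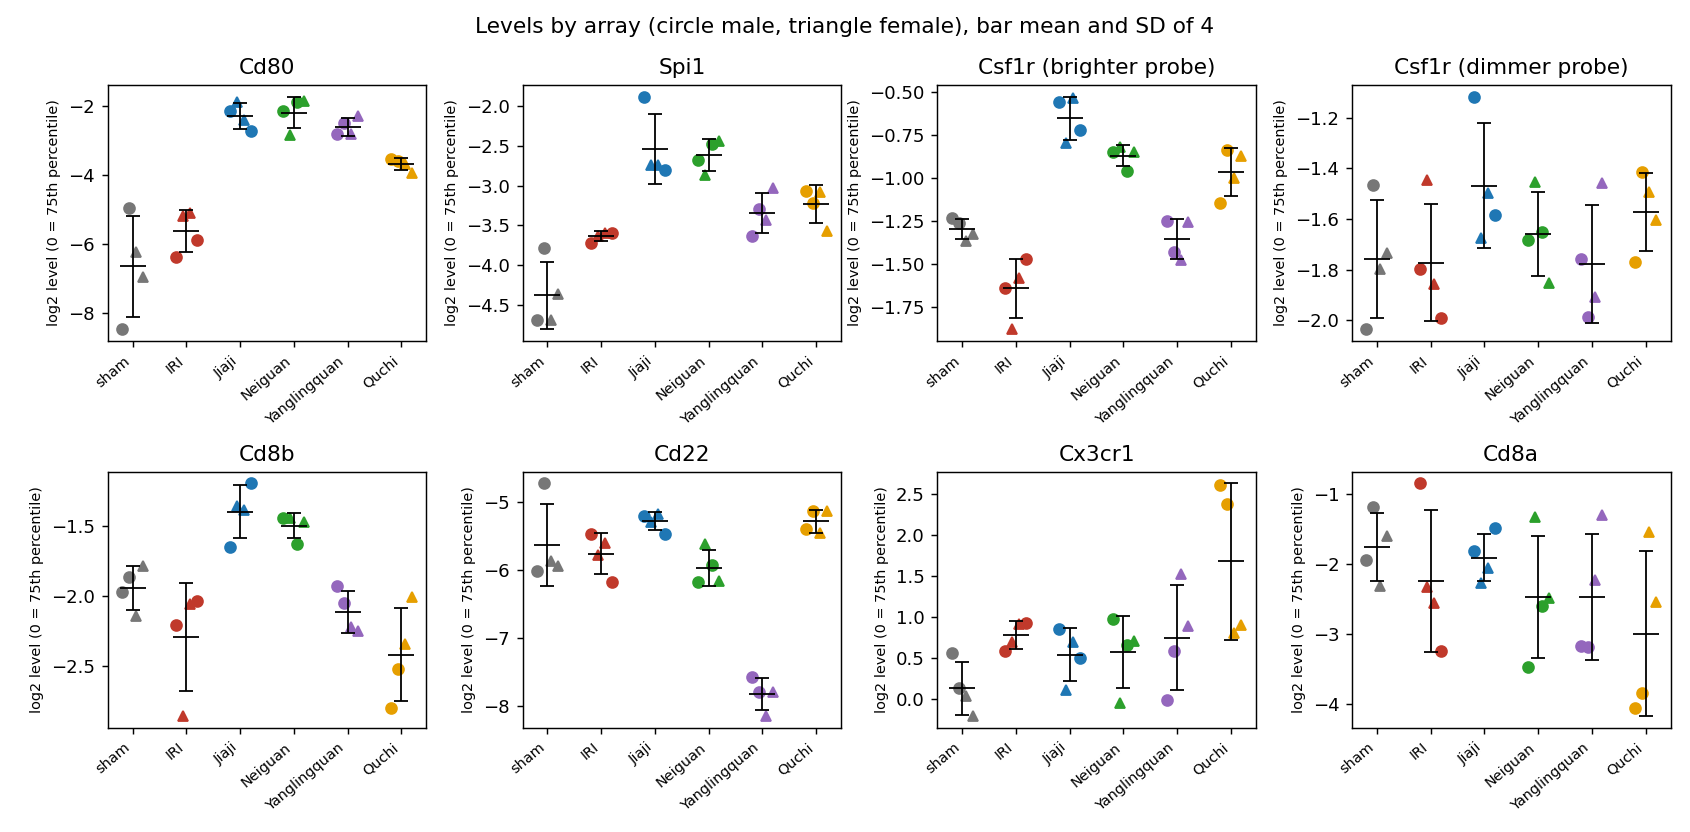
Log2 level on each array (0 is the array's 75th percentile) of the genes called in the most comparisons, with both Csf1r probes and Cd8a beside Cd8b; circles are males, triangles females, and bars give the mean and SD of 4 arrays. Cd80 and Spi1 lie above sham on every acupoint array, only the brighter Csf1r probe separates Jiaji from IRI, and Cd22 is low on all 4 Yanglingquan arrays.

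Csf1r encodes the receptor for macrophage colony-stimulating factor, on which most macrophages depend. At its brighter probe the levels were -1.23, -1.26, -1.37 and -1.33 in sham and -1.64, -1.88, -1.58 and -1.47 in IRI. They were -0.56, -0.79, -0.53 and -0.72 in Jiaji, -0.85, -0.82, -0.96 and -0.85 in Neiguan, and -1.15, -0.84, -1.001 and -0.87 in Quchi. Every array of these 3 groups lay above every sham and IRI array. Yanglingquan, at -1.25, -1.43, -1.48 and -1.25, overlapped sham, and only its replicate 3 fell within the IRI range.

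IRI stood at -0.35 ± 0.10 against sham with no overlap of arrays, just short of the threshold (adjusted p = 0.0532). The Csf1r probe rose against IRI by 0.99 in Jiaji, 0.78 in Neiguan and 0.68 in Quchi (each ± 0.10, adjusted p = 2.56e-06, 7.47e-05 and 0.000712), and stood at 0.29 in Yanglingquan (adjusted p = 0.075). Against sham the rises were 0.65 (0.37 with median scaling), 0.43 and 0.33 (adjusted p = 0.000112, 0.00616 and 0.0273). The Quchi call against sham ended without sham replicate 2, 3 or 4 or Quchi replicate 2 or 4 (adjusted p = 0.0515 to 0.0968) and with median scaling (adjusted p = 0.0579). The other Csf1r probe moved much less: 0.30, 0.11 and 0.20 (each ± 0.16) against IRI in Jiaji, Neiguan and Quchi, with a correlation of 0.49 between the probes over 24 arrays. With the mean of both probes the differences from IRI were 0.65, 0.44 and 0.44, still called, and those from sham in Neiguan and Quchi were 0.26 and 0.26 and no longer called (adjusted p = 0.0868 and 0.0898). The gene's change is therefore uncertain between its probes.

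Cx3cr1, the fractalkine receptor of patrolling monocytes and resident macrophages, was high on 2 Quchi arrays. Its Quchi levels were 2.62, 2.38, 0.80 and 0.91, the first 2 from males and the others from females. Sham stood at 0.56, 0.13, 0.032 and -0.21 and IRI at 0.58, 0.70, 0.91 and 0.92. It rose in Quchi against sham by 1.55 ± 0.35 (adjusted p = 0.0037), and against IRI it stood at 0.90 ± 0.35 without passing (adjusted p = 0.154). Of the 2 high arrays, replicate 1 was scanned apart and replicate 2 with the females, and the part of scan was not tested. A test of the interaction of group and sex called 0 genes by limma, but it rested on 2 arrays of each sex per group.

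Mrc1, the mannose receptor of resident and alternatively activated macrophages, and Aif1, a calcium-binding protein of macrophages, fell in Yanglingquan against sham. For Mrc1 the levels were -3.36, -3.25, -2.89 and -2.84 in Yanglingquan and -2.51, -1.34, -2.38 and -2.51 in sham, a difference of -0.90 ± 0.28 (adjusted p = 0.0418). For Aif1 they were 1.86, 1.78, 1.11 and 1.83 against 2.44, 2.695, 2.06 and 2.53, a difference of -0.78 ± 0.26 (adjusted p = 0.0496). Neither gene's groups overlapped. Both calls rested on single arrays: Mrc1 lost it without sham replicate 2 or 3, Neiguan replicate 3 or Yanglingquan replicate 1, 2 or 4 (adjusted p = 0.0501 to 0.182), and Aif1 without any 1 array other than IRI replicate 1 or 4, sham replicate 3 or Jiaji replicate 1 (20 of 24 arrays, adjusted p = 0.0503 to 0.15). The Mrc1 call also ended with quantile normalization (adjusted p = 0.0531) and held with normexp (-0.57, adjusted p = 0.0456). The Aif1 call also ended with normexp, median scaling, no filter on dim probes and the mean of its probes (adjusted p = 0.0667, 0.0698, 0.0545 and 0.105). The other Aif1 probe stood at -0.47 ± 0.26.

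The other 12 phagocyte markers were called in 0 of the 9 comparisons by limma, while 48.9% of all genes were called in at least 1. They were Cd68, the scavenger receptor gene Cd163, Itgam, Adgre1 (F4/80), the complement genes C1qa, C1qb and C1qc, Lyz2, the endotoxin coreceptor gene Cd14, the adaptor gene Tyrobp, Ccr2 and the galectin gene Lgals3. Itgam had the widest differences, -1.42 ± 0.50 in Yanglingquan and -0.85 ± 0.50 in Quchi against sham (adjusted p = 0.0662 and 0.232), and was well above background on 3 of 4 arrays in each of these groups. Without Jiaji replicate 1 the Yanglingquan difference passed (adjusted p = 0.046). It passed in 2 of 33 settings and ran from -1.60 to -0.38 over them (adjusted p by limma 0.0131 to 0.198), so its size was not stable. The C1q genes, which encode the chains of 1 protein, kept levels of 1.83 to 3.55 for C1qa, 2.81 to 4.32 for C1qb and 0.094 to 1.87 for C1qc over the 24 arrays.

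In Neiguan most phagocyte markers stood above IRI, but only Spi1 and Csf1r passed singly. Of the 17 markers 13 lay above IRI, with a median of 0.43 beside -0.052 over all genes. The 4 below IRI were Cd163, Adgre1, Cx3cr1 and Ccr2, with Ccr2 lowest at -0.32. Cd68 stood at 0.65 (95% confidence interval 0.043 to 1.27, adjusted p = 0.218), Cd14 at 0.55 (0.067 to 1.03, adjusted p = 0.19), Lyz2 at 0.59 (0.0042 to 1.18, adjusted p = 0.25) and C1qc at 0.53 (0.018 to 1.04, adjusted p = 0.235). No other uncalled phagocyte marker had an interval clear of 0. The Cd14 levels were 0.12, 0.33, -0.13 and 0.38 in Neiguan and 0.40, -0.34, -0.86 and -0.70 in IRI, so that only IRI replicate 1 reached the Neiguan range. The median over the 17 markers was 0.27 without IRI replicate 4 and 0.61 without IRI replicate 1, and 0.35 to 0.43 under the other scalings. Against sham it was 0.26, with 11 of 17 above.

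Cd80 showed the widest difference of all members. It encodes CD80 (B7-1), the ligand on antigen-presenting cells that costimulates T cells through CD28 and restrains them through CTLA-4. Its sham levels were -8.47, -4.96, -6.22 and -6.94, and 2 of these 4 arrays were well above background; in IRI it stood at -6.38, -5.19, -5.08 and -5.86. The Jiaji levels were -2.14, -1.87, -2.39 and -2.73 and the Neiguan levels -2.14, -2.85, -1.89 and -1.85. In Yanglingquan they were -2.81, -2.50, -2.81 and -2.28, and in Quchi -3.53, -3.58, -3.66 and -3.94. Every acupoint array lay above every sham and IRI array.

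Against IRI, Cd80 rose by 3.35 ± 0.47 in Jiaji (10.2-fold, adjusted p = 6.56e-05), by 3.45 ± 0.47 in Neiguan (10.9-fold, adjusted p = 8.39e-05), by 3.03 ± 0.47 in Yanglingquan (8.17-fold, adjusted p = 0.000352) and by 1.95 ± 0.47 in Quchi (3.87-fold, adjusted p = 0.0238). Against sham the rises were 4.36, 4.46, 4.05 and 2.97 (adjusted p = 1.19e-06, 8.31e-07, 1.13e-05 and 0.000291). IRI stood 1.02 ± 0.47 above sham without passing (adjusted p = 0.255), and passed without sham replicate 2 (1.64, adjusted p = 0.0129). The Quchi call against IRI ended without IRI replicate 1 or 4 or Quchi replicate 2 (1.71, 1.90 and 1.89; adjusted p = 0.099, 0.0682 and 0.0978). With normexp the differences were 1.51, 1.67, 1.45 and 0.75 from IRI and 1.70, 1.86, 1.64 and 0.94 from sham, all called, so the fold of this faint gene depends on the background correction. The set had 1 Cd80 probe.

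The partner gene Cd86 and the invariant chain gene Cd74 did not follow Cd80. Cd86 encodes the second CD28 ligand, and against IRI it stood at -0.39 in Jiaji, -0.26 in Neiguan, -0.15 in Yanglingquan and 0.46 in Quchi (95% confidence intervals -1.007 to 0.23, -0.88 to 0.36, -0.77 to 0.47 and -0.16 to 1.08). Cd74, which escorts MHC class II molecules, differed from IRI by -0.23 to -0.015 in the 4 groups. None of these differences passed the test.

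The pan-leukocyte gene Ptprc (CD45) was called in 0 of the 9 comparisons by limma. Its group means were 1.55 ± 0.34 in sham, 1.27 ± 0.68 in IRI, 1.23 ± 0.45 in Jiaji, 1.08 ± 0.51 in Neiguan, 0.99 ± 0.67 in Yanglingquan and 0.68 ± 0.73 in Quchi (SD, n = 4). In Quchi the arrays stood at 0.33, -0.15, 1.46 and 1.09, the first 2 from males. The difference of Quchi from sham was -0.86 ± 0.37 (adjusted p = 0.0972), and at the other Ptprc probe -1.16 ± 0.39.

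Of the 7 T cell markers, 1 was called in any of the 9 comparisons between 2 groups, beside 48.9% of all genes. This was Cd8b, the beta chain of the CD8 coreceptor of cytotoxic T cells. Its levels were -1.65, -1.35, -1.39 and -1.19 in Jiaji and -1.44, -1.44, -1.63 and -1.47 in Neiguan. In IRI it stood at -2.21, -2.86, -2.06 and -2.04 and in sham at -1.98, -1.87, -2.15 and -1.78. All Jiaji and Neiguan arrays lay above all sham and IRI arrays.

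Cd8b rose against IRI by 0.90 ± 0.17 in Jiaji and 0.80 ± 0.17 in Neiguan (adjusted p = 0.0017 and 0.00701). Against sham it rose by 0.55 in Jiaji (adjusted p = 0.0269) and stood at 0.45 in Neiguan (adjusted p = 0.0745). The Jiaji call against sham ended without sham replicate 1 or 3 or Jiaji replicate 2, 3 or 4 (adjusted p = 0.0518 to 0.0887) and with median scaling, quantile normalization, normexp and the authors' deposited table, which gave 0.27, 0.41, 0.35 and 0.41 (adjusted p = 0.178, 0.0702, 0.0534 and 0.0697). The alpha chain gene Cd8a did not move with it: 0.34 ± 0.53 in Jiaji and -0.23 ± 0.53 in Neiguan against IRI (adjusted p = 0.771 and 0.848), and over the 24 arrays the genes correlated at 0.14 after group means were removed. Levels of Cd8a in Quchi were -4.06, -3.84, -1.54 and -2.55, and against sham it stood at -1.24 ± 0.53 (adjusted p = 0.1), passing without Quchi replicate 3 (adjusted p = 0.0366).

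The CD3 chain genes Cd3d, Cd3e and Cd3g, the helper coreceptor gene Cd4 and the receptor kinase gene Lck were called in 0 comparisons by limma. Cd3e stood at -0.92 ± 0.44 in Yanglingquan against sham (adjusted p = 0.168). Cd4 stood at -0.55 ± 0.20 in Yanglingquan against IRI (adjusted p = 0.0718).

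Of the B cell markers, Cd79b and Cd22 had probes. Cd22, an inhibitory lectin of B cells, was faint throughout and lowest in Yanglingquan, where its levels were -7.57, -7.80, -8.15 and -7.80. IRI stood at -5.48, -5.79, -5.61 and -6.18 and sham at -6.02, -4.73, -5.87 and -5.94, so the groups did not overlap. It was well above background on 0 of 4 Yanglingquan arrays, 1 of 4 Neiguan arrays, 3 of 4 IRI arrays and all 4 arrays of each other group. It was called lower by limma in Yanglingquan than in IRI and sham (mean levels -7.83, -5.76 and -5.64, adjusted p = 6.77e-06 and 2.43e-06). The calls held in every setting that kept the gene. Over these settings the measured difference ran from -2.23 to -0.25 against IRI and from -2.34 to -0.33 against sham. Since Yanglingquan gives a bound only, sham was at least 1.09-fold higher and no fold is given against IRI. That bound rested on sham replicate 2, as the other sham arrays lay below the Yanglingquan bound of -5.761. Yanglingquan also had the smallest share of probes above background, whose part in the Cd22 result was not tested. Cd79b, a chain of the B cell receptor, was called in 0 comparisons by limma.

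The NK and cytotoxic markers Nkg7, the perforin gene Prf1 and the NK receptor gene Klrd1 (CD94) were called in 0 comparisons by limma, while 48.9% of all genes were called in at least 1. Klrd1 stood at -0.95 ± 0.52 in Yanglingquan and -0.82 ± 0.52 in Quchi against sham, and Nkg7 at -0.83 ± 0.49 in Quchi against sham (adjusted p = 0.233, 0.268 and 0.237). In Quchi the Nkg7 levels were -1.37, -1.38, 0.58 and 0.25, and the 2 low arrays were the males.

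Set side by side, phagocyte markers and T, B and NK markers had different medians in several comparisons, and few members of either class were called. In Jiaji against IRI, 4 of 33 members were called higher (8.39% of all genes were; 1.8% were lower), 2 of them phagocyte markers, 1 a T cell marker and Cd80. The medians were -0.11 over the phagocyte markers and 0.18 over the T, B and NK markers. The second turned to -0.036 with median scaling, which moved the median of all genes to -0.23, and to -0.042 without Jiaji replicate 4. In Neiguan against IRI the same 4 members were called higher (4.41% of all genes; 1.23% were lower). The phagocyte median was 0.43, while the T, B and NK median was -0.19 with 9 of 12 genes below IRI. The latter became 0.26 without IRI replicate 1, so its sign rested on that array.

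**Figure D3:**
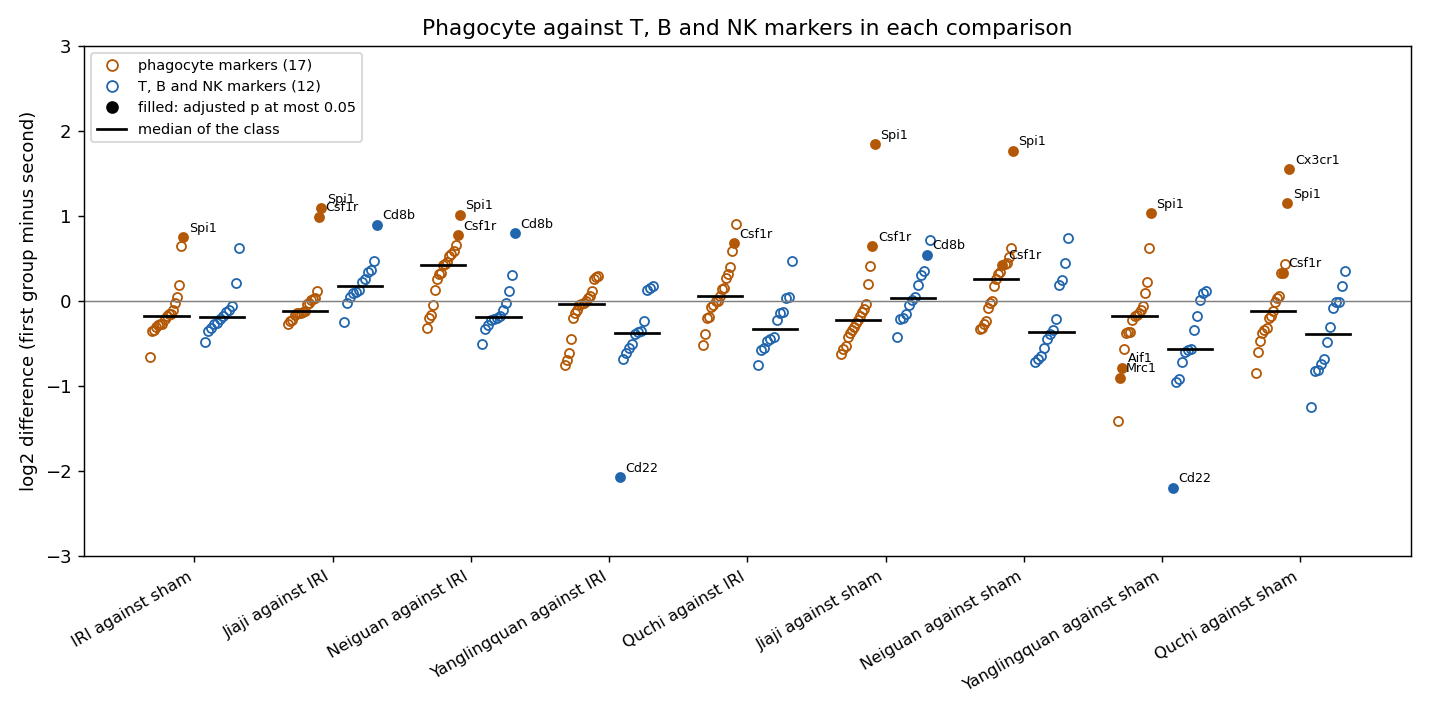
Log2 difference of every phagocyte marker (brown, 17) and every T, B and NK marker (blue, 12) in each of the 9 comparisons; filled points have an adjusted p of at most 0.05 and black bars are medians. In Neiguan against IRI the phagocyte median is 0.43 and the T, B and NK median -0.19; most points are open.

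In Yanglingquan against IRI, Cd80 was called higher (4.09% of all genes were) and Cd22 lower (8.03% of all genes), and the medians were -0.030 for phagocyte and -0.38 for T, B and NK markers. In Quchi against IRI, Csf1r and Cd80 were called higher (2.39% of all genes; 1.05% were lower), with medians of 0.062 and -0.32. The T, B and NK medians of both comparisons were nearer 0 without IRI replicate 1 (-0.047 and -0.071), and the phagocyte medians were -0.23 and -0.091 without IRI replicate 4 and 0.11 and 0.26 without IRI replicate 1. Of the members, 4 T, B and NK markers and 2 phagocyte markers were among the faintest of 4 equal brightness classes of genes, whose median difference from IRI was -0.37 in Yanglingquan, beside 0.11 in the brightest class. The part of brightness in the difference between the classes was not tested.

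Against sham, 4 members were called higher in Jiaji (17.5% of all genes were; 6.55% were lower), 3 in Neiguan (12.5%; 7.39% lower), 2 in Yanglingquan (5.79%) and 4 in Quchi (11.8%; 9.26% lower). Yanglingquan had 3 members called lower, Mrc1, Aif1 and Cd22 (7.21% of all genes). Medians of the phagocyte markers were -0.23, 0.26, -0.18 and -0.11 in this order, and those of the T, B and NK markers 0.035, -0.36, -0.57 and -0.39. At an unadjusted p under 0.05 by limma there were 5, 8, 5 and 4 members against IRI and 5, 8, 7 and 8 against sham, in the same order. In Jiaji against sham the T, B and NK median was -0.24 with median scaling and -0.15 with quantile normalization; these scalings moved the median of all genes there to -0.36 and -0.17.

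An F test over the 6 groups called 6 members (Csf1r, Spi1, Cx3cr1, Cd80, Cd8b and Cd22), 45.8% of all genes being called. The F test among the 4 acupoint groups called the same 6, beside 39.1% of all genes. Between females and males 0 of 33 members were called in either direction (in females 0.0465% of all genes were higher and 0.163% lower), and 1 member had an unadjusted p under 0.05 by limma.

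Within groups, several T and NK cell markers varied together from array to array. After group means were removed, Cd3e and Lck correlated at 0.97 over the 24 arrays, Cd8a and Lck at 0.93, Ptprc and Cd3e at 0.93, and Nkg7 and Klrd1 at 0.85. The chemokine receptor gene Ccr2 correlated with Lck at 0.91. The complement genes C1qa and C1qc correlated at 0.90 and Lyz2 and Tyrobp at 0.84. These values are descriptions over arrays that share the scaling of each array. Among the genes called most often, Csf1r and Spi1 correlated at 0.055, and Spi1 and Cd80 at 0.59; Cd80 and Lyz2 correlated at -0.26.

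**Figure D4:**
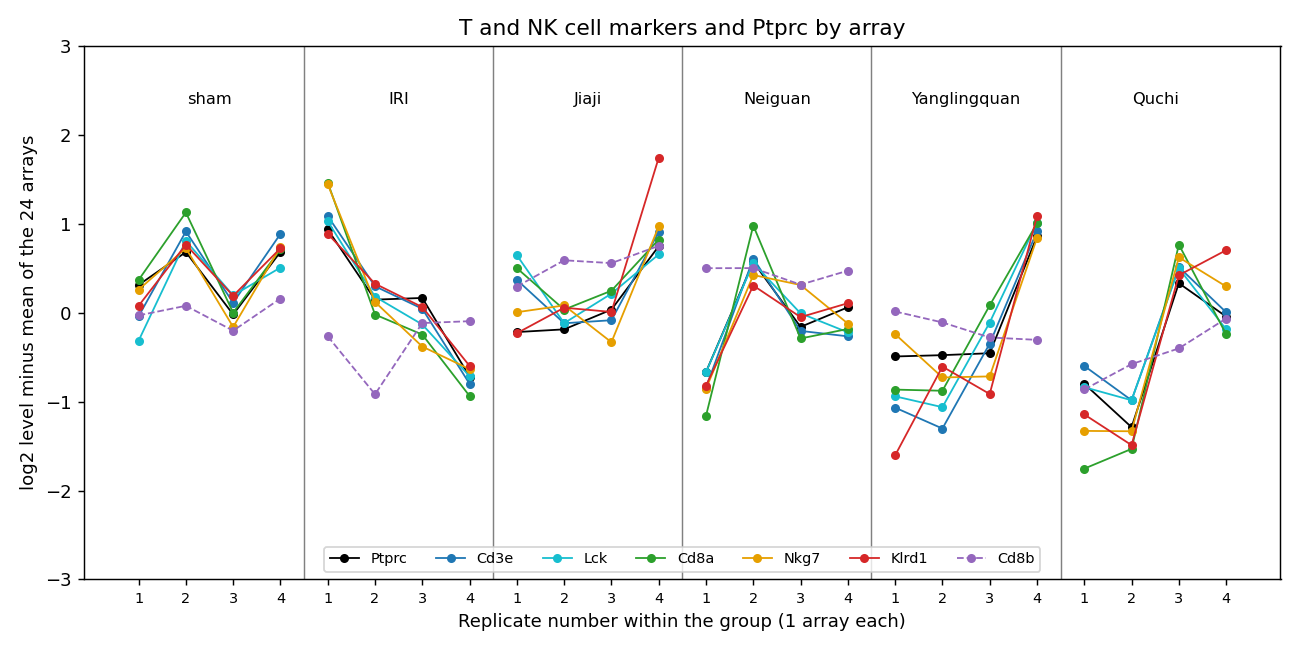
Log2 level minus the mean of the 24 arrays for Ptprc, T cell and NK cell markers on each array; lines join the points of a gene within a group only to show that genes move together, and replicates have no order. The 6 genes drawn with solid lines are above their mean on IRI replicate 1, where Cd8b (dashed) is not, and below it on Quchi replicates 1 and 2.

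Over pairs of genes, the median correlation within groups was 0.25 among the 136 pairs of phagocyte markers, 0.36 among the 66 pairs of T, B and NK markers and 0.30 among the 204 mixed pairs. The summed level of the 12 T, B and NK markers was 2.002 on Quchi replicate 1 and 2.03 on replicate 2, both males, beside 3.15 and 2.97 on the female replicates 3 and 4. On the same arrays the summed level of fibroblast markers was 6.87 and 6.93 beside 5.90 and 5.99, and that of cardiomyocyte markers 10.9 and 11.1 beside 10.4 and 10.6, and their part was not tested. In IRI it was 3.77 on replicate 1 and 2.29 on replicate 4, both males. The summed level of the 17 phagocyte markers was 6.56 to 7.02 in Neiguan and 5.90 to 6.95 in IRI, so the groups overlapped through IRI replicate 1. In the other groups it was 6.05 to 6.77 in sham, 5.92 to 6.73 in Jiaji, 5.81 to 6.55 in Yanglingquan and 6.36 to 6.61 in Quchi.

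Other genes of the same cell types, 83 tested in 5 lists, gave 44 calls over the 9 comparisons, in 22 genes. Of all genes, 48.9% were called in at least 1 of these comparisons. Of 27 other monocyte and macrophage genes tested, Csf2rb, the shared beta chain of the IL-3 and GM-CSF receptors, rose against IRI by 0.67 in Jiaji and 0.73 in Neiguan (each ± 0.20, adjusted p = 0.0394 and 0.0368). Csf3r, the G-CSF receptor, rose against IRI by 0.63 ± 0.19 in Jiaji (adjusted p = 0.0327) and against sham in all 4 acupoint groups, by 0.79 to 1.19. Tlr4, the endotoxin receptor, fell in IRI against sham by 0.54 ± 0.15 (adjusted p = 0.0423). It was also called lower than sham in Jiaji, Yanglingquan and Quchi, at -0.64, -0.605 and -0.48 (each ± 0.15, adjusted p = 0.00475, 0.0141 and 0.0306), but not in Neiguan. Cebpb, a transcription factor of myeloid cells, rose against sham in all 4 acupoint groups. The rises were 0.63 in Jiaji, 0.69 in Neiguan, 0.58 in Yanglingquan and 0.68 in Quchi (each ± 0.17, adjusted p = 0.00995, 0.00619, 0.0274 and 0.00737). Msr1, a macrophage scavenger receptor, fell in Yanglingquan against sham, with a difference of -1.54 ± 0.38 (adjusted p = 0.0112), and was well above background on 2 of 4 arrays there. The F test over the 6 groups called 6 of the 27, beside 45.8% of all genes. The median of these genes against IRI was -0.098 in Jiaji, 0.29 in Neiguan, -0.082 in Yanglingquan and -0.045 in Quchi.

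Of 16 other T cell genes tested, Foxp3, the factor of regulatory T cells, fell in Yanglingquan against IRI by 0.46 ± 0.14 (adjusted p = 0.033), and the checkpoint receptor gene Ctla4 rose in Jiaji against sham by 0.48 ± 0.17 (adjusted p = 0.0468). Of 14 other NK and cytotoxic genes, Ncr1, an activating receptor of NK cells, was called lower in Yanglingquan than in IRI (adjusted p = 0.00121); it was well above background on 0 of 4 Yanglingquan arrays, so IRI was at least 1.12-fold higher. Klrg1, an inhibitory receptor of NK and T cells, was called lower in Yanglingquan than in sham, at -2.08 ± 0.48 (adjusted p = 0.00778), with 1 of 4 Yanglingquan arrays well above background. It passed the filter on faint probes through sham only, the group where it was higher, and that filter favours such a call. Klrk1, the activating receptor NKG2D, rose against sham by 0.58 in Jiaji and 0.80 in Neiguan (each ± 0.17, adjusted p = 0.0172 and 0.0025), and Tbx21, the factor of type 1 lymphocytes, rose against sham in Jiaji, Neiguan and Yanglingquan by 0.61, 0.74 and 0.51 (each ± 0.13). Of 12 other B and plasma cell genes, Cd38 fell in Quchi against IRI and sham by 1.89 and 2.55 (each ± 0.39, adjusted p = 0.00928 and 0.000248), with 2 of 4 Quchi arrays well above background. The IgE receptor gene Fcer2 and the complement receptor gene Cr2, both of B cells, were called lower in Yanglingquan than in IRI, at -1.49 ± 0.43 and -1.34 ± 0.43 (adjusted p = 0.0283 and 0.0444), with 2 and 1 of 4 Yanglingquan arrays well above background. Cr2 rose against sham by 1.62 in Jiaji and 1.27 in Neiguan (each ± 0.43, adjusted p = 0.00849 and 0.0396). Of 14 MHC class II and dendritic cell genes, the lymph node homing receptor gene Ccr7 fell in Yanglingquan against IRI by 1.13 ± 0.27 (adjusted p = 0.00899), with 1 of 4 Yanglingquan arrays well above background.

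Markers of other cells of the heart are given beside these results. Of 14 cardiomyocyte markers, 10 were called higher in Yanglingquan than in IRI (4.09% of all genes were), with a median of 0.56. In each of Jiaji and Neiguan 2 were called higher (8.39% and 4.41% of all genes). The mast cell protease gene Mcpt1 fell against IRI in Jiaji, Neiguan and Yanglingquan by 1.41, 1.31 and 1.17 (each ± 0.34, adjusted p = 0.0108, 0.0272 and 0.0311). Of 9 red cell and platelet markers 5 were called lower in Jiaji than in IRI (1.8% of all genes were), with a median of -0.71. Median differences of endothelial and fibroblast markers from IRI lay between -0.16 and 0.00024 and between -0.20 and 0.031. The part of these cells in the leukocyte results was not tested.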

How the data were processed

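Total RNA of 24 rat myocardium samples was labelled with Cy3 and hybridised to Agilent single-colour arrays, per the labels' protocols. The deposited spot intensity values and flags (other values, 0 or 1) were made by the authors with Agilent Feature Extraction, version 10.7.3.1 per the submitters' processing notes and 11.0.1.1 per the file headers. The deposited table of log2 values, with a median of 7.20 in every column, followed its arrays at r of at least 0.997 across probes and served as an alternative; how it was normalized is not stated.

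Analysis dropped 1377 control spots per array and 8733 outlier spots in all; 0 spots were saturated. Replicate spots were averaged into 30367 probes, of which 18005 (59.3%) matched a rat RefSeq transcript. The filter kept a probe flagged well above background on every array of 1 or more groups, and a gene's passing probe of highest mean signal stood for it (12894 genes, 231 of them with missing values). Values were log2 processed signal minus the 75th percentile of the array. The fit used limma 3.58.1 under R 4.3.3 (lmFit with eBayes, group and sex, all 24 arrays, 17 residual degrees of freedom, two-sided, Benjamini-Hochberg over all genes, threshold adjusted p of 0.05; genes past it are called). The fit was tested on simulated data. The labels do not say how replicates were obtained, so the p-values reflect variation among these samples, which may be technical, and precision is limited by the number of arrays. For a gene not well above background on any array of a group, only a bound was given: the brighter group's mean was set against the dim group's mean of per-array floors, each floor being the lowest signal of any well-measured probe or, if larger, the dim probe's signal. Members called, or differing by over 0.8 on the log2 scale, were named with their values. Of other lists, up to 3 called genes of smallest p per comparison were named, and Cebpb was also given in its other called comparisons. Alternatives were quantile, median and normexp processing (offset 50), the authors' table, other probe rules, no sex term, a replicate block, scan as a random block, and leaving out each array; a fit without the Yanglingquan arrays was added after the data were seen. Same-numbered arrays did not deviate together (correlations of -0.39 to 0.37), so the numbers were not taken to pair animals. The members and lists were chosen with earlier results of these data known. Promoter sequences are from RefSeq (GRCr8), which matched 25 of the 35 genes.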

Additional observations from a re-analysis of the deposited data

Results flagged for a closer look

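In 15 of 198 sets of 4 arrays (33 genes in 6 groups, 7.58%), 1 array stood far from the other 3; chance gives such a gap in about 1 in 20 sets. In sham, replicate 2 stood apart at -1.34 for Mrc1, -0.87 for Adgre1 and -4.73 for Cd22, and replicate 3 at -0.92 for Prf1. In IRI, replicate 1 stood apart at 3.05 for Tyrobp. In Jiaji these were replicate 1 at -1.88 for Spi1, replicate 2 at -4.90 for Cd4, and replicate 4 at 1.20 for Cd3d and 1.24 for Klrd1. In Neiguan, replicate 3 stood apart at -1.63 for Cd8b and -6.53 for Cd79b. In Yanglingquan these were replicate 3 at 1.11 for Aif1 and replicate 4 at 1.99 for Ptprc. In Quchi, replicate 3 stood apart at 2.33 for Aif1 and 0.24 for Prf1.

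The levels of 6 members differed among the 4 acupoint groups by limma's moderated F test, which tests the difference between their contrasts against the shared IRI arrays: Cd22 (adjusted p = 7.58e-07), Csf1r at its brighter probe (0.000398), Cd8b (0.000411), Spi1 (0.00614), Cx3cr1 (0.0323) and Cd80 (0.0455). Jiaji and Neiguan had the highest mean levels for Cd80, Spi1, Csf1r and Cd8b, Quchi for Cx3cr1, and Yanglingquan the lowest for Cd22. Each group lay in scans of its own.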

How the results depend on the processing

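Alternatives were run for 39 member differences, those called or over 0.8 on the log2 scale, and 0 of them changed direction. Counts of called members moved by over 1.5 times as follows. In IRI against sham (1 called) the count was 2 with median scaling, 2 with scan as a random block, 0 with the replicate block and 0 to 2 as single arrays were left out. It stayed at 1 with quantile normalization, normexp and the authors' table, but Spi1 was not called there, so the called member was another gene. In Yanglingquan against IRI (2) it was 0 with probes well above background on all arrays, which drops Cd80 and Cd22, and 5 with the scan block. In Quchi against IRI (2) it was 1 with that stricter filter and 1 to 2 without single arrays. Against sham, Jiaji (4) had 8 with median scaling. Neiguan (3) had 5 with quantile normalization, 5 with normexp, 6 with the authors' table and 8 with the scan block. Yanglingquan (5) had 3 with the stricter filter and 3 to 6 without single arrays, and Quchi (4) had 7 with the scan block. The scan block also gave 10 (6 groups) and 13 (4 acupoint groups) in the F tests, each 6 before. Its consensus correlation was -0.0998, and the cause of these changes was not tested. Each scan held 1 group, so this block cannot separate scan from group. With the replicate block, Spi1 in IRI against sham and Aif1 in Yanglingquan against sham were no longer called (adjusted p = 0.0575 and 0.0717). Signal near background limits Cd80, Cd22, Cd79b and Itgam, which were well above background on 22, 16, 21 and 22 of 24 arrays. Counts over all genes also moved by more than 1.5 times: those of IRI against sham ran from 440 to 1636 over the settings, and those of Quchi against IRI from 122 to 1324, beside 742 and 444 as reported.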

Other observations

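The interaction of group and sex was fitted for 12875 genes: 0 genes were called by limma, 1247 genes and 6 members had an unadjusted p under 0.05. Of neutrophil markers, Elane, the neutrophil elastase gene, rose against sham by 2.59 ± 0.46 in Jiaji, 2.34 ± 0.50 in Neiguan and 2.17 ± 0.46 in Quchi (adjusted p = 0.000385, 0.00273 and 0.00286), and the granule protein gene Ngp was called lower in Yanglingquan than in IRI (adjusted p = 0.00203), where it was well above background on 0 of 4 Yanglingquan arrays, so IRI was at least 1.16-fold higher. The dendritic cell factor gene Zbtb46 rose against sham by 1.29 in Jiaji and 1.26 in Neiguan (each ± 0.22, adjusted p = 0.00022 and 0.000363). The MHC class II genes RT1-Bb and RT1-Db1 fell in Yanglingquan against sham, with differences of -1.999 ± 0.52 and -1.18 ± 0.37 (adjusted p = 0.0154 and 0.0418).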
